A study of Mus musculus with 19 samples.

Results

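Trpv6 encodes a calcium-selective entry channel of epithelial cells, and it is described here with 6 further mouse genes that carry calcium across the plasma membrane or bind it in the cytosol. The 7 genes were taken by name from the 36528 gene IDs of the deposited tables, and all 7 were found. They are the entry channels Trpv6 (Entrez gene 64177, chromosome 6), Trpv4 (63873, chromosome 5) and Cacna1h (58226, chromosome 17), the cytosolic calcium-binding protein S100g (12309, chromosome X), and the plasma membrane calcium pumps Atp2b1 (67972, chromosome 10), Atp2b2 (11941, chromosome 6) and Atp2b4 (381290, chromosome 1). Their levels in Etv5KO and control mice were known when they were chosen. Differences of the 7 genes between genotypes are therefore given as descriptions with an interval and no test.

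Polyadenylated RNA was sequenced from sorted alveolar type II (AT2) cells, the surfactant-making cells of the alveolus, and from whole lung. Mice labelled Etv5KO had the alleles SpcCreERT2 and RosatdTomato and, for the transcription factor gene Etv5, 1 knockout allele and 1 flanked by loxP sites. Control mice had SpcCreERT2 and RosatdTomato alone. Mice of both genotypes received tamoxifen at 100 mg/kg on 5 days, and 5 further days passed before the tissue was taken. AT2 cells were sorted as EpCAM+ tdTomato+ CD45- CD31- cells. The groups hold 5 Etv5KO and 4 control libraries of AT2 cells and 5 Etv5KO and 5 control libraries of lung. The design names 1 more control AT2 library, which was not analysed here. The age of the mice is not given in the sources used here. The Spc promoter restricts the Cre recombinase to cells in which it is active, so other cells of the lung kept the loxP-flanked allele, while the knockout allele was in every cell of the Etv5KO mice. Replicates are numbered in accession order. The design names 5 mice per genotype, but no label says that each library came from its own mouse. The spread between libraries may therefore in part be technical.

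Counts per library summed to between 17426415 and 26722625 in Etv5KO AT2 cells, 20279607 and 28671262 in control AT2 cells, 20332410 and 22478603 in Etv5KO lung, and 14971793 and 26989453 in control lung. Levels are given as CPM, the count of a gene scaled by the total of its library and by TMM factors over all 19 libraries. Etv5 itself had 713 ± 58.3 CPM in Etv5KO AT2 cells and 667 ± 36.1 CPM in control AT2 cells (SD, n = 5 and 4), a log2 difference of 0.10 with an adjusted p of 0.505 by edgeR's quasi-likelihood test. In lung it had 113 ± 10.8 CPM in Etv5KO libraries and 103 ± 7.20 CPM in control libraries (SD, n = 5 each), with an adjusted p of 0.978. Counts per gene do not show which exons the reads cover, so they do not check the genotype labels, and Etv5KO below means the libraries so labelled. Between the control groups, all 10 AT2 markers listed, among them Sftpc, Abca3 and Lamp3, were higher in sorted AT2 cells than in lung, and all 8 endothelial, 7 fibroblast and 6 lymphocyte markers were lower. Ager of the AT1 markers, Scgb3a1 and Bpifa1 of the airway markers and Lyz2 of the macrophage markers were also higher in the sorted cells. In the same lists 7 of 8 AT1, 3 of 6 airway and 6 of 7 macrophage markers were lower in the sorted cells.

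Calcium crosses transporting epithelia such as the gut in stages that these genes serve. TRPV6 lets calcium in at the apical membrane, calbindin-D9k, the product of S100g, binds it in the cytosol, and pumps of the ATP2B family, chiefly ATP2B1, push it out at the other side. In the gut, TRPV6 and calbindin-D9k are classic targets of the vitamin D receptor. In AT2 cells, a rise in cytosolic calcium is a trigger for the release of surfactant from lamellar bodies.

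Trpv6 was far lower in Etv5KO than in control mice, in AT2 cells and in whole lung. The 5 Etv5KO AT2 libraries had 8.99, 7.65, 7.65, 8.40 and 8.20 CPM, against 56.3, 63.3, 69.3 and 41.0 CPM in the 4 control AT2 libraries. Etv5KO lung had 1.91, 1.19, 1.73, 2.50 and 1.52 CPM, against 7.81, 8.38, 9.48, 7.88 and 4.71 CPM in control lung. The Etv5KO libraries lay below every control library in both tissues, and the Etv5KO AT2 values lay within the range of control lung. The log2 difference in AT2 cells was -2.81 (SE 0.14, 95% interval -3.11 to -2.51), or 7.02-fold higher in control, and the difference in lung was -2.12 (SE 0.22, interval -2.59 to -1.64), or 4.33-fold higher in control. Counts behind the lowest values ran from 28 to 60 reads in the Etv5KO lung libraries. The Etv5KO AT2 libraries differed little among themselves, with a mean of 8.18 ± 0.563 CPM (SD, n = 5), while control AT2 cells had 57.5 ± 12.2 CPM (SD, n = 4), with replicate 4 the lowest. In bulk RNA, fewer cells that make a transcript and less transcript per cell cannot be told apart.

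**Figure D1:**
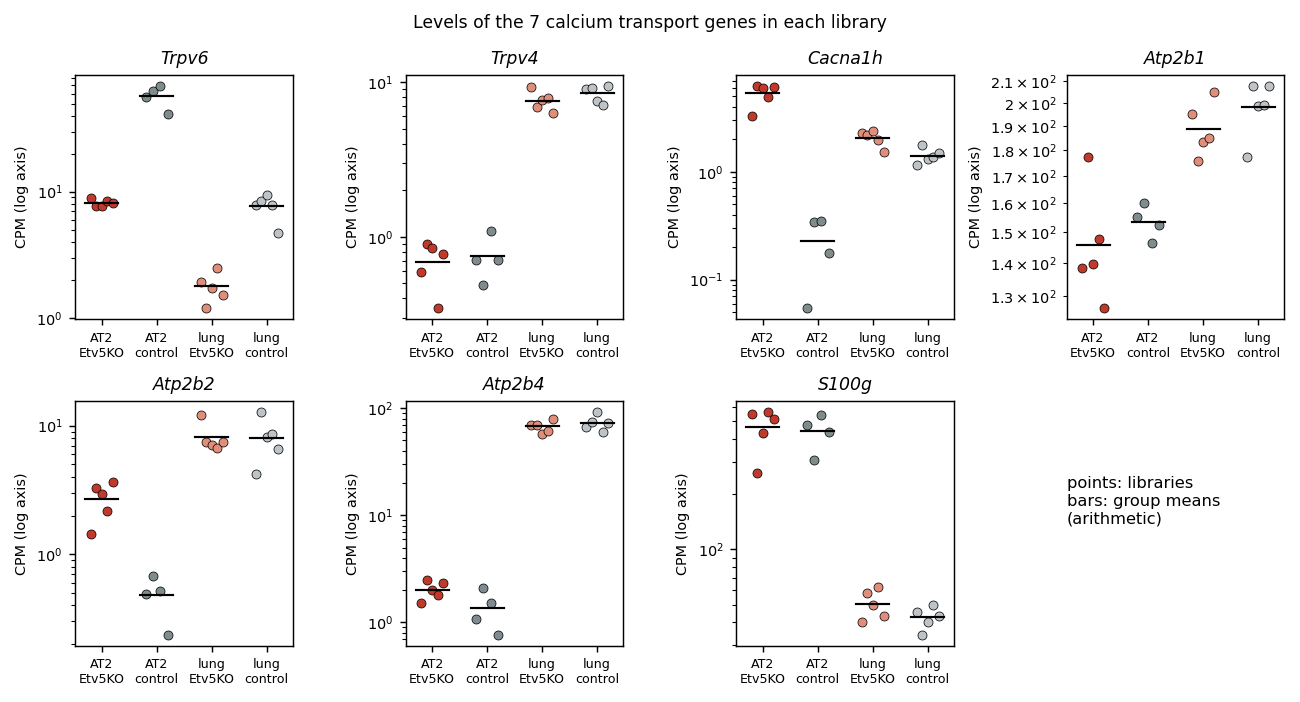
Level of the 7 genes in every library, in CPM on a log axis, with 1 panel per gene and the groups in the order Etv5KO AT2, control AT2, Etv5KO lung and control lung. Each point is 1 library and the line marks the group mean. The 5 Etv5KO AT2 points of Trpv6 sit between 7.65 and 8.99 CPM, below the control AT2 points at 41.0 to 69.3 CPM, whereas those of Cacna1h and Atp2b2 sit above their controls.

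The windows of 250 bases upstream of the annotated starts of Trpv6 and S100g are printed because these are the entry channel and the buffer that share the vitamin D pathway in gut, and because Trpv6 is the member that was lower in both tissues. Both are from RefSeq (GRCm38.p6), at chr6:41636406-41636655 for Trpv6 and chrX:162964600-162964849 for S100g, minus strand, written 5′ to 3′ along the gene. Capitals mark GGAA, the core that ETS-family factors such as ETV5 bind, or TTCC, its complement.
Trpv6: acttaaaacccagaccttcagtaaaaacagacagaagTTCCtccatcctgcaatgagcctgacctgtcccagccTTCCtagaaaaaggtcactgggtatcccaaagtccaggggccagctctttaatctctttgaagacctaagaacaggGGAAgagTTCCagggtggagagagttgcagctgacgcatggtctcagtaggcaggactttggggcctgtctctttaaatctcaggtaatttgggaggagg
S100g: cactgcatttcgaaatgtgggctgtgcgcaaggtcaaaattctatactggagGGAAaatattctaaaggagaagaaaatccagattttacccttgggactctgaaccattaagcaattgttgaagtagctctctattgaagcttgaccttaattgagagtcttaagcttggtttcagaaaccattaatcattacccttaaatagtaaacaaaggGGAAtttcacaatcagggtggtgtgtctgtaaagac

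GGAA occurred 4 times in the Trpv6 window and 2 times in the S100g window, counting both strands. Of 32851 such windows over the mouse genome, 33.4% held at least 4 and 76.8% at least 2, with a median of 3, so neither count stands out. The longer AGGAAG, which contains GGAA, was found 1 time upstream of Trpv6 and 0 times upstream of S100g, and 29.5% of all windows held it. It was also found 1 time upstream of each of annotated starts 2 and 3 of Atp2b2, but not of start 1. The windows of Trpv4, Atp2b1 and Atp2b4 did not hold it. CCGGAA was in no member's window and in 12.0% of all windows. AGGTCA, a motif bound by many nuclear receptors, occurred 2 times in each of the Trpv6 and S100g windows. At least 2 copies were in 1.36% of all windows, and none of the 7 windows found for Trpv4, Atp2b1, Atp2b2 and Atp2b4 held a copy. These windows held 0 to 6 GGAA motifs, with the highest number upstream of Atp2b4. A match of letters is a description and shows no binding.

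Cacna1h, the pore subunit of the low-voltage-activated (T-type) calcium channel Cav3.2, was higher in Etv5KO AT2 cells. Etv5KO AT2 libraries had 3.28, 6.28, 6.002, 4.95 and 6.08 CPM, against 0.0542, 0.341, 0.346 and 0.178 CPM in control AT2 libraries. The control values rest on 1, 7, 8 and 3 reads, and those of Etv5KO on 50 to 142 reads, so the gene was close to undetected in control AT2 cells. The log2 difference was 4.45 (SE 0.35, 95% interval 3.69 to 5.22). From the summed counts of 515 reads in Etv5KO and 19 reads in control, scaled by library size, the ratio was 22.6, with an exact 95% interval of 14.3 to 37.9 that covers counting error only. In lung, Cacna1h had 2.31, 2.17, 2.39, 1.96 and 1.52 CPM in Etv5KO libraries, against 1.15, 1.76, 1.31, 1.37 and 1.48 CPM in control libraries. The lowest Etv5KO library lay below the highest control library, the remaining values did not overlap, and the log2 difference was 0.56 (SE 0.17, interval 0.18 to 0.93). Exons of Cacna1h share 158 of 9763 bases with Tpsg1 on the other strand, a gene with 27 reads over all libraries, and whether counting used strand is not given in the sources used here.

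Trpv4, a channel opened by stretch, osmotic swelling and warmth, was a lung transcript with little signal in AT2 cells. It had 0.590, 0.897, 0.845, 0.345 and 0.774 CPM in Etv5KO AT2 cells, against 0.705, 0.486, 1.08 and 0.711 CPM in control AT2 cells, from 6 to 25 reads a library. In lung, Etv5KO libraries had 9.28, 6.88, 7.62, 7.83 and 6.26 CPM, against 8.998, 9.20, 7.51, 7.08 and 9.46 CPM in control libraries. Genotypes overlapped in both tissues, with log2 differences of -0.10 in AT2 cells (SE 0.32, 95% interval -0.79 to 0.60) and -0.16 in lung (SE 0.13, interval -0.43 to 0.12). The depth in AT2 cells leaves that interval wide.

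S100g, the calcium buffer paired with TRPV6 in the gut, was abundant in AT2 cells, with overlapping values in the genotypes. Etv5KO AT2 cells had 545, 263, 429.9, 563 and 516 CPM, against 476, 308, 543 and 439.8 CPM in control AT2 cells. Etv5KO lung had 40.2, 58.1, 49.6, 62.5 and 43.2 CPM, against 45.8, 34.3, 40.1, 49.99 and 43.6 CPM in control lung. Ranges overlapped in both tissues, and replicate 2 was the lowest library of each AT2 group. The log2 differences were 0.08 in AT2 cells (SE 0.22, 95% interval -0.39 to 0.55) and 0.24 in lung (SE 0.13, interval -0.04 to 0.52). S100g lies within the span of Ctps2 but shares no exon bases with it.

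The pumps of the ATP2B family use ATP to move calcium out of the cell, and the 3 members split by genotype and tissue. Atp2b1, the housekeeping pump, had 138, 177, 139.6, 148 and 127 CPM in Etv5KO AT2 cells, against 155, 160.2, 146 and 152 CPM in control AT2 cells. In lung it had 189 ± 11.4 CPM in Etv5KO libraries and 198 ± 12.5 CPM in control libraries (SD, n = 5 each). Its genotypes overlapped in both tissues, with log2 differences of -0.07 in AT2 cells (95% interval -0.26 to 0.12) and -0.08 in lung (interval -0.22 to 0.07), the narrowest intervals of the 7 genes.

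Atp2b2, the fast pump best known from hair cells, neurons and lactating mammary gland, was higher in Etv5KO AT2 cells. It had 1.44, 3.27, 2.96, 2.19 and 3.66 CPM in Etv5KO AT2 cells, against 0.488, 0.681, 0.519 and 0.237 CPM in control AT2 cells, from 263 reads in the Etv5KO libraries together and 39 in the control libraries. All Etv5KO libraries lay above all control libraries, and the log2 difference was 2.47 (SE 0.34, 95% interval 1.73 to 3.20), or 5.53-fold. In lung it had 12.1, 7.52, 7.08, 6.75 and 7.44 CPM in Etv5KO libraries, against 4.202, 12.8, 8.11, 8.63 and 6.61 CPM in control libraries. The control range contained all Etv5KO values, and the log2 difference was 0.02 (SE 0.26, interval -0.54 to 0.59).

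Atp2b4, a pump of broad expression that is the main one of sperm, had 1.51, 2.48, 1.99, 1.78 and 2.32 CPM in Etv5KO AT2 cells, against 1.08, 2.09, 1.51 and 0.771 CPM in control AT2 cells. These ranges overlapped, and the log2 difference was 0.55 with an interval that reached 0 (SE 0.27, 95% interval -0.04 to 1.15). In lung it was a well-expressed gene, with 67.7 ± 8.51 CPM in Etv5KO libraries and 73.1 ± 12.1 CPM in control libraries (SD, n = 5 each), a log2 difference of -0.12 (interval -0.38 to 0.14). Its exons share 6 bases with the microRNA gene Mir6903. Replicate 1 of the Etv5KO AT2 libraries was the lowest of its group for Cacna1h, Atp2b2 and Atp2b4, and still stood above all controls for Cacna1h and Atp2b2.

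Of the 7 genes, then, 3 had genotype ranges that did not overlap in AT2 cells (Trpv6 lower, Cacna1h and Atp2b2 higher) and 1 in lung (Trpv6 lower). Over all genes tested, 12.4% had such ranges in AT2 cells (5.90% higher, 6.49% lower) and 1.52% in lung (0.544% lower). Since the members were picked from these contrasts, nothing follows from setting their share beside that of all genes. All 7 passed the filter on low counts in every comparison. Cacna1h had no more than 0.346 CPM in any control AT2 library, and Atp2b2 had 4 to 14 reads in these libraries. In AT2 cells both passed the filter through the Etv5KO group, where they were high. Just outside these 3 stands Atp2b4, whose lowest Etv5KO AT2 value of 1.51 CPM lay below the highest control value of 2.09 CPM.

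**Figure D2:**
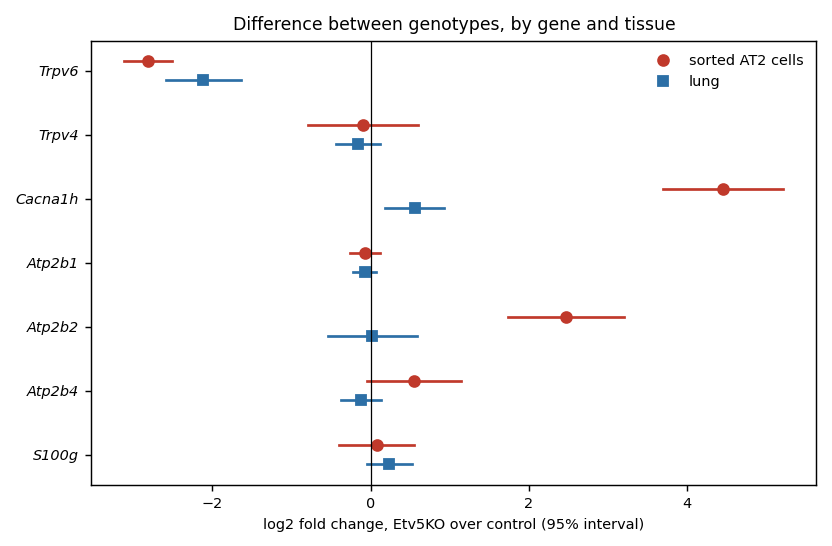
Log2 difference of Etv5KO from control for the 7 genes in AT2 cells and in lung, with 95% intervals from the fits. Trpv6 is below 0 in both tissues, at -2.81 in AT2 cells and -2.12 in lung, while the intervals of Cacna1h and Atp2b2 in AT2 cells lie far above those in lung.

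The genotype difference in AT2 cells minus that in lung was also estimated in 1 fit of all 4 groups. It was 3.89 for Cacna1h on the log2 scale (SE 0.39, 95% interval 3.08 to 4.69) and 2.44 for Atp2b2 (SE 0.47, interval 1.46 to 3.41). Both genes thus had the larger genotype difference in AT2 cells. For Trpv6 the value was -0.70 (SE 0.26, interval -1.25 to -0.15), the larger difference again being that in AT2 cells. Atp2b4 had 0.65 (SE 0.27, interval 0.08 to 1.23), and the intervals of Trpv4, Atp2b1 and S100g included 0. The lung holds AT2 cells, so the 2 tissues are not separate views of the genotype.

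Levels of different genes were compared per transcript length, with the deposited RPKM, which carries the authors' size factor of each library. S100g ranked first in all 19 libraries, at 919.7 ± 245 RPKM in Etv5KO AT2 cells, 864 ± 190.4 in control AT2 cells, 102 ± 19.2 in Etv5KO lung and 86.2 ± 11.9 in control lung (SD, n = 5, 4, 5 and 5). In Etv5KO AT2 cells all 5 libraries had the order S100g, Atp2b1 (19.1 ± 2.58 RPKM), Trpv6 (2.31 ± 0.159), Cacna1h (0.538 ± 0.127) and Atp2b2 (0.366 ± 0.120), and Trpv4 and Atp2b4 changed places at the end. Control AT2 cells placed Trpv6 (16.0 ± 3.35 RPKM) beside Atp2b1 (19.8 ± 0.877), with Trpv6 ahead in 1 of 4 libraries, and Cacna1h (0.0229 ± 0.0139) last in all 4. Trpv6 was thus the main entry channel of the 3 by RPKM in AT2 cells of both genotypes, at 16.0 RPKM in control cells but 2.31 RPKM in Etv5KO cells, where Cacna1h replaced Trpv4 as the channel next in order.

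In lung the order was headed by the pumps after S100g. Etv5KO lung had S100g, Atp2b1 (25.2 ± 1.65 RPKM), Atp2b4 (7.42 ± 0.976), Trpv4 (2.21 ± 0.327), Atp2b2 (1.13 ± 0.306), Trpv6 (0.510 ± 0.141) and Cacna1h (0.213 ± 0.0343) in that order in all 5 libraries. Control lung differed in the place of Trpv6 (2.20 ± 0.507 RPKM), which changed places with Trpv4 (2.46 ± 0.313) between libraries and could not be told from it within their spread.

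**Figure D3:**
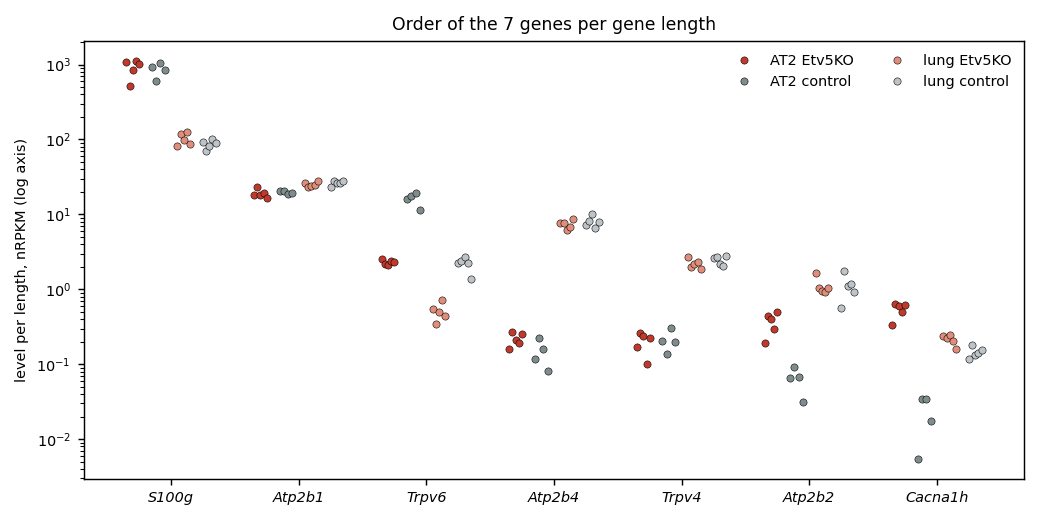
Level of each of the 7 genes per transcript length in the 4 groups, as the authors' size-factor adjusted RPKM on a log axis, with each library as a point. S100g is highest in every group, and Trpv6 is near Atp2b1 in control AT2 cells (16.0 and 19.8 RPKM) but below it in Etv5KO AT2 cells (2.31 and 19.1 RPKM).

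The difference between AT2 cells and lung was fitted within each genotype. It rests on the same AT2 libraries as the genotype differences. No p is given for Trpv6, Cacna1h and Atp2b2, whose AT2 genotype ranges did not overlap, and edgeR's p is given for the other 4. All 7 genes were chosen with their levels in these libraries known, so those p are descriptions and not independent tests. In control mice Trpv6 was 7.47-fold higher in AT2 cells than in lung (log2 2.90, SE 0.19), and S100g 10.3-fold higher (log2 3.37, SE 0.16, adjusted p = 2.67e-09 by edgeR). The 10 AT2 markers had a median of 2.80 on the same log2 scale. The other 5 were lower in the AT2 cells: Atp2b4 by 52.2-fold (adjusted p = 5.75e-10), Trpv4 by 11.1-fold (adjusted p = 2.62e-08) and Atp2b1 with a log2 difference of -0.37 (adjusted p = 0.000426), beside Atp2b2 by 16.2-fold and Cacna1h with a log2 difference of -2.53 (SE 0.35). With 1 to 8 reads of Cacna1h and 4 to 14 of Atp2b2 in the control AT2 libraries, both passed the filter here through lung, where they were high. With scaling by library size alone, the difference of Atp2b1 was -0.77. Over all genes, 74.5% passed the same test (35.6% higher and 38.9% lower in AT2 cells), so a call here says little by itself. The ranges of AT2 and lung libraries did not overlap for any of the 7, against 66.5% of all genes.

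In Etv5KO mice Trpv6 was still higher in AT2 cells than in lung, by 4.65-fold (log2 2.22, SE 0.17), and S100g had a log2 difference of 3.21 (SE 0.20, adjusted p = 6.73e-09 by edgeR). Cacna1h was 2.61-fold higher in Etv5KO AT2 cells than in Etv5KO lung (log2 1.38, SE 0.19), which restates its known high values in Etv5KO AT2 cells. Atp2b2 was lower in Etv5KO AT2 cells than in Etv5KO lung, with a log2 difference of -1.56 (SE 0.23), against -4.02 in control mice. Trpv4 (log2 -3.40, adjusted p = 3.42e-09), Atp2b4 (log2 -5.04, adjusted p = 2.79e-12) and Atp2b1 (log2 -0.36, adjusted p = 0.00172) were also lower in Etv5KO AT2 cells. With scaling by library size alone, the difference of Atp2b1 was -0.72. Of all genes, 78.0% passed (38.3% higher and 39.7% lower in AT2 cells). The ranges of Etv5KO AT2 and Etv5KO lung libraries overlapped for Atp2b1 but not for the other members. They did not overlap for 65.6% of all genes. These tissue contrasts share no library with each other, but each shares its libraries with the genotype contrasts.

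Other genes of calcium handling were read from 8 lists, 118 genes with a row in the tables, which hold further channels, pumps, exchangers, buffers and signalling proteins. In AT2 cells 71 of these could be tested, and by edgeR's quasi-likelihood test 10 were higher and 5 lower in Etv5KO, or 21.1%, while 56 did not pass. DESeq2 called 18 of the 71 (25.4%), 14 of 106 passed with no filter (13.2%), and over all alternatives 10 to 18 passed. Over all genes tested, 9.87% passed (5.03% higher, 4.84% lower). The lists were chosen with earlier results of these data known, so nothing follows from setting their share beside that of all genes. The same limit holds for the p of single list genes below, and no list count is a result about its family. The median log2 difference of the 71 was 0.06, against -0.01 for all genes.

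In the list of pumps and exchangers, 2 of 10 tested were higher and none lower, where 9.87% of all genes were called. Both are SERCA pumps, which load the endoplasmic reticulum with calcium. Atp2a3 had 446 ± 34.4 CPM in Etv5KO AT2 cells and 292 ± 23.5 CPM in control AT2 cells (SD, n = 5 and 4; log2 0.62, SE 0.08, adjusted p = 0.000524 by edgeR). Atp2a2 had 801 ± 61.6 CPM in Etv5KO AT2 cells and 612 ± 32.5 CPM in control AT2 cells (log2 0.39, SE 0.08, adjusted p = 0.00764). All Etv5KO libraries lay above all control libraries for both pumps.

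Among store-operated and release channels, 2 of 10 were higher and 2 lower. Itpr1, an IP3-gated release channel, had 217 ± 9.22 CPM in Etv5KO AT2 cells and 152 ± 12.7 CPM in control AT2 cells (SD, n = 5 and 4; log2 0.52, adjusted p = 0.000712 by edgeR), and Orai1, the pore of store-operated entry, had 80.9 ± 9.92 CPM and 52.3 ± 6.07 CPM in the same groups (log2 0.64, adjusted p = 0.00255). The lower genes were another IP3 receptor, Itpr2, at 57.5 ± 7.95 CPM in Etv5KO and 80.8 ± 12.4 CPM in control AT2 cells (log2 -0.49, adjusted p = 0.0241, ranges overlapping), and the ryanodine receptor Ryr2, at 5.24 ± 1.43 CPM in Etv5KO and 8.78 ± 0.495 CPM in control AT2 cells (log2 -0.74, adjusted p = 0.0208). The remaining IP3 receptor, Itpr3, had a log2 difference of 0.30 and did not pass by edgeR (adjusted p = 0.0646), but was called higher by DESeq2. Over 13 alternatives, Ryr2 lost its call in 1 fit of all groups and without control replicate 3, with an adjusted p of up to 0.118. Itpr2 lost its call without control replicate 1, 3 or 4 or Etv5KO replicate 3 or 5 (adjusted p of up to 0.0862).

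Voltage-gated subunits had 2 of 10 higher and none lower, both pore subunits of high-voltage-activated neuronal channels. Cacna1b had 11.4 ± 2.22 CPM in Etv5KO AT2 cells and 4.47 ± 1.41 CPM in control AT2 cells (SD, n = 5 and 4; log2 1.35, SE 0.22, adjusted p = 0.00223 by edgeR). Cacna1a had 4.30 ± 0.528 CPM in Etv5KO AT2 cells and 2.45 ± 0.504 CPM in control AT2 cells (log2 0.81, SE 0.17, adjusted p = 0.0101). Neither had overlapping ranges. Summed markers of neuroendocrine and neuronal cells, for which 6 genes were listed, ran from 2.84 to 4.53 CPM in Etv5KO and 2.54 to 3.98 CPM in control AT2 cells, so these markers were at low levels that overlapped between genotypes.

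In the list of vitamin D signalling and TRPV6 partners, 2 of 9 were higher and none lower. Vdr, the vitamin D receptor, had 46.5 ± 5.52 CPM in Etv5KO AT2 cells and 33.4 ± 2.52 CPM in control AT2 cells (SD, n = 5 and 4; log2 0.48, SE 0.09, adjusted p = 0.00657 by edgeR), in the opposite direction to Trpv6. Anxa2, which with S100a10 carries TRPV6 to the membrane, had 669 ± 31.2 CPM in Etv5KO AT2 cells and 550.3 ± 21.9 CPM in control AT2 cells (log2 0.29, adjusted p = 0.0187). The call of Anxa2 was lost without control replicate 1 or control replicate 4 (adjusted p of up to 0.0658).

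The remaining lists gave 1 or 2 calls each, where 9.87% of all genes were called. Among calcineurin and NFAT genes, 0 of 11 were higher and 2 lower, and both encode regulators that bind calcineurin: Rcan2 had 3.85 ± 1.43 CPM in Etv5KO and 8.19 ± 0.916 CPM in control AT2 cells (SD, n = 5 and 4; log2 -1.09, SE 0.24, adjusted p = 0.0129 by edgeR), and Rcan1 had 26.8 ± 2.82 CPM and 39.1 ± 8.56 CPM in the same groups (log2 -0.54, adjusted p = 0.0277). Of 10 TRP channels, 1 was lower, Trpm6, a magnesium and calcium channel, at 143 ± 11.3 CPM in Etv5KO and 178 ± 19.7 CPM in control AT2 cells (log2 -0.31, adjusted p = 0.0363, ranges overlapping). Of 8 mitochondrial uptake genes, 1 was higher, Mcub, at 2.38 ± 0.417 CPM in Etv5KO and 1.47 ± 0.116 CPM in control AT2 cells (log2 0.69, adjusted p = 0.0305). Of 3 calmodulins and buffers, 1 was higher, Calm3, at 220.2 ± 15.8 CPM in Etv5KO and 178 ± 15.6 CPM in control AT2 cells (log2 0.31, adjusted p = 0.0292). Over 13 alternatives the calls of Trpm6, Mcub, Calm3 and Rcan1 were lost in 9, 8, 5 and 5, with adjusted p of up to 0.190, 0.0870, 0.0820 and 0.0989. Leaving out Etv5KO replicate 4 ended the call for all 4 genes. So did leaving out Etv5KO replicate 1, 3 or 5 or control replicate 1, 2 or 3 for Trpm6, Etv5KO replicate 1 or 3 or any control library for Mcub, Etv5KO replicate 1 or 5 or control replicate 2 or 4 for Calm3, and Etv5KO replicate 1 or 3 or control replicate 4 for Rcan1. The calls of Atp2a2, Atp2a3, Cacna1a, Cacna1b, Itpr1, Orai1, Rcan2 and Vdr were kept under all 13.

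**Figure D4:**
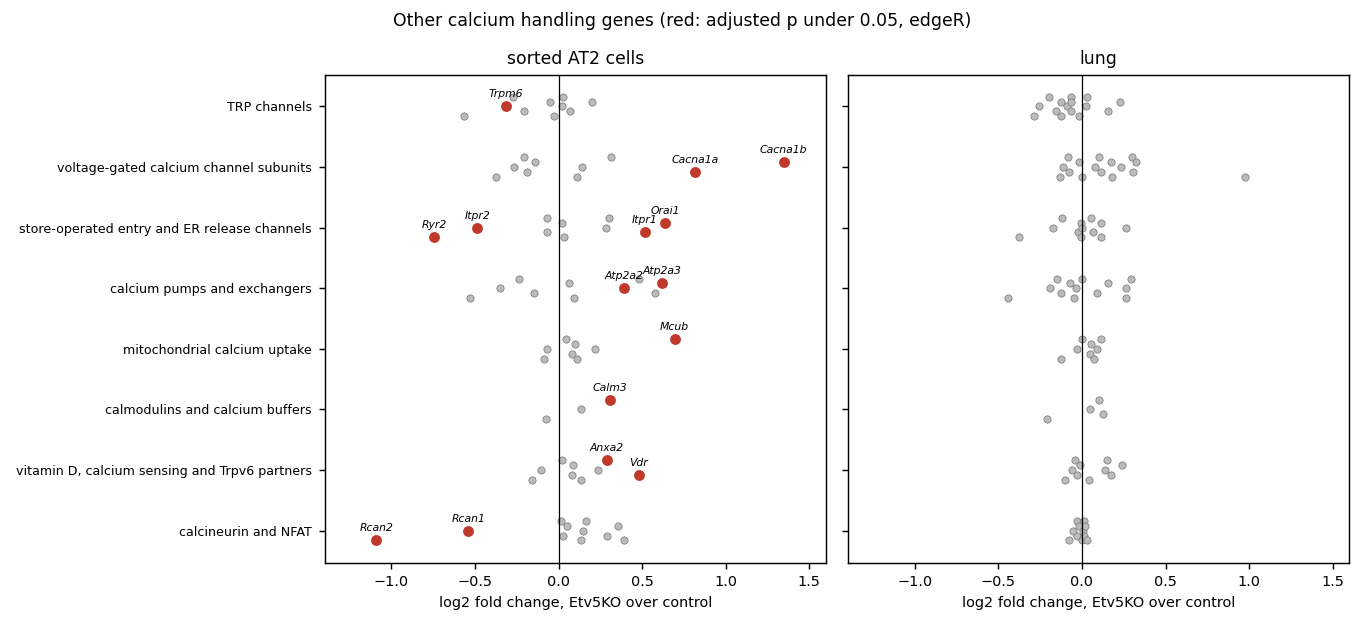
Log2 difference of Etv5KO from control for the tested genes of the 8 calcium lists, with AT2 cells (71 genes) on the left, lung (89 genes) on the right and 1 row per list. Red named points passed edgeR's test (10 higher and 5 lower in AT2 cells, none in lung), grey points did not, and the highest called difference is that of Cacna1b at 1.35.

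In lung none of the 89 list genes tested passed edgeR's or DESeq2's test between genotypes, where 0.415% of all genes passed edgeR's test. At an unadjusted p under 0.05 there were 3 of the 89 by edgeR, where 5.52% of all genes were, and 4 by DESeq2. Vdr had 12.2 ± 2.18 CPM in Etv5KO lung and 10.7 ± 1.202 CPM in control lung (SD, n = 5 each; adjusted p = 0.978 by edgeR). Cacna1b had 1.48 ± 0.558 CPM in Etv5KO lung and 0.776 ± 0.539 CPM in control lung (adjusted p = 0.798). The difference between the tissues in genotype effect passed for 1 of the 89, against 1.59% of all genes. This was Atp2a3, at 0.65 (SE 0.11, adjusted p = 0.00214 by edgeR), which had 454 ± 36.0 CPM in Etv5KO lung and 468 ± 32.3 CPM in control lung.

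Between control AT2 cells and control lung, 24 of 89 list genes were higher and 44 lower in AT2 cells by edgeR, or 76.4%. Over all genes 74.5% passed (35.6% higher, 38.9% lower), so the list share is near that of all genes. With scaling by library size alone 12 list genes were higher and 62 lower, and all genes moved likewise, to 3320 higher and 9479 lower. Some genes place the 7 members among their families. Trpc6, a receptor-operated channel, had 0.272 ± 0.0603 CPM in control AT2 cells and 31.8 ± 3.76 CPM in control lung (SD, n = 4 and 5; log2 -6.87). Trpc6 passed the filter through lung, where it was high, so it could only come out lower in AT2 cells, and no p is given. Trpv2, a relative of Trpv6, had 1.18 ± 0.347 CPM and 32.4 ± 2.15 CPM in the same groups (log2 -4.77, adjusted p = 1.58e-10 by edgeR). Slc8a1, the sodium-calcium exchanger of heart, had 7.22 ± 0.358 CPM in control AT2 cells and 46.4 ± 5.43 CPM in control lung (log2 -2.68, adjusted p = 4.96e-10). In the other direction, Slc24a4, a potassium-dependent sodium-calcium exchanger, had 138 ± 6.07 CPM in control AT2 cells and 37.3 ± 4.51 CPM in control lung (log2 1.88, adjusted p = 2.92e-09), and Vdr had 33.4 ± 2.52 CPM and 10.7 ± 1.202 CPM in these groups (log2 1.64, adjusted p = 1.99e-08). The voltage-gated pore subunits Cacna1s (log2 3.05, adjusted p = 1.31e-07) and Cacna1b (log2 2.58, adjusted p = 5.65e-05) were also higher in control AT2 cells.

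Over the 19 libraries, 12242 genes whose mean level reached 5 CPM were ranked by the likeness of their log2 CPM to that of Trpv6. The 5 genes most like it were Acoxl (Pearson r = 0.973), Elovl1 (0.972), Arg2 (0.968), Bex2 (0.967) and Aif1l (0.967). Libraries of 1 group share tissue and genotype, so the 19 points are not independent, and no p is given. Acoxl, related to acyl-CoA oxidases, averaged 134 CPM in Etv5KO AT2 cells, 849 in control AT2 cells, 17.2 in Etv5KO lung and 105 in control lung. Elovl1, which lengthens very long chain fatty acids, averaged 640.4 CPM in Etv5KO AT2 cells, 2806 in control AT2 cells, 162 in Etv5KO lung and 375 in control lung. Both were highest in control AT2 cells and lowest in Etv5KO lung, as Trpv6 was. Of the other members, S100g had an r of 0.66 with Trpv6, and the rest ran from -0.49 for Atp2b1 to -0.84 for Atp2b2.

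Markers of some other cells were at different summed levels in the genotypes of AT2 libraries. Scaled by library size, the summed level of 8 AT1 markers ran from 3150.2 to 3737 CPM in Etv5KO AT2 cells and 2315 to 2488 CPM in control AT2 cells, the 6 ciliated markers from 148 to 202 CPM in Etv5KO and 91.9 to 107 CPM in control, and the 4 mesothelial markers from 13.8 to 21.3 CPM in Etv5KO and 6.80 to 12.4 CPM in control. None of these ranges overlapped. Gene by gene, 4 of 8 AT1, 2 of 6 ciliated and 1 of 3 tested mesothelial markers were called higher by edgeR, and none lower. In the other lists, 2 of 6 airway secretory and 1 of 7 macrophage markers were called higher. Called lower were 3 of 10 AT2 markers (Sftpa1, Napsa and Lpcat1) and 1 of 8 endothelial markers. No tested marker of the remaining lists was called. Over all genes 5.03% were called higher and 4.84% lower. The summed macrophage, smooth muscle and lymphocyte markers overlapped between genotypes. The 6 airway secretory markers ran from 577 to 879 CPM in Etv5KO and 299 to 595 CPM in control AT2 cells, which overlapped. The 10 AT2 markers ran from 123022 to 147002 CPM in Etv5KO AT2 cells and 133303 to 173510 CPM in control AT2 cells, and no marker of these lists was at 0 in a whole group. The summed markers of endothelium, at 235 to 297 CPM in Etv5KO and 239.8 to 291 CPM in control AT2 cells, and of fibroblasts, at 48.4 to 102 CPM in Etv5KO and 41.5 to 69.9 CPM in control AT2 cells, overlapped. In lung the summed AT2 markers ran from 21151 to 29007 CPM in Etv5KO and 23655 to 29898 CPM in control, which overlapped. Gene by gene, 1 of these 10, Sftpa1, was called lower in Etv5KO lung by edgeR, where 0.211% of all genes were. The median log2 difference of the 10 in lung was -0.18, against -0.01 for all genes. The part of these markers in the values of Trpv6, Cacna1h and Atp2b2 was not tested.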

How the data were processed

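RNA of 19 libraries was analysed. The deposited counts are reads aligned uniquely to each gene model, per the file headers. A further deposited column holds RPKM values, adjusted by the authors with a size factor for each library per the file headers, and it was used only to compare levels between genes. The submitters' processing notes name the aligner GSNAP, with no version, and build mm9. The sources used here name no annotation release and do not say whether strand was used. Of 36528 Entrez IDs, 31049, with 98.7% of counts, were named from a RefSeq table of GRCm38.p6. The same assembly gave the upstream windows (6 of 7 members matched) and exon overlaps, and no mm9 coordinate was converted. No 2 libraries were duplicates: chi-square per degree of freedom was 7.81 to 61.8 over pairs of replicates.

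Counts were tested with edgeR 4.0.16 (limma 3.58.1, R 4.3.3): filterByExpr with a minimum count of 10 and a minimum total of 15, TMM scaling, and a two-sided quasi-likelihood F test with Benjamini-Hochberg adjustment over all genes tested, called at 0.05. Genotypes were compared in a separate fit for each tissue, tissues in a separate fit for each genotype, and the difference between tissues in a fit of all groups. Levels in CPM use TMM factors over all libraries. Alternatives were DESeq2 1.42.0, scaling by library size alone, no filter, 1 fit of all groups, and leaving out each library in turn. The fits were tested on simulated data. Likeness to Trpv6 is the Pearson correlation of log2 CPM (prior count 2). Genes named from the calcium lists are up to 4 per list and comparison with the smallest p past the threshold, of which a few are printed for the tissue comparison. The 7 members and the lists were chosen with earlier results of these data known.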

Additional observations from a re-analysis of the deposited data

Results flagged for a closer look

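Atp2b2 in lung of Etv5KO replicate 1 had 12.1 CPM and stood apart from the other 4 Etv5KO lung libraries, of which the next had 7.52 CPM. The gap was 0.857 of the range of the group. Of 28 groups of libraries examined over the 7 genes, this was the 1 that stood out, and chance gives about 1 in 20. The control lung libraries spanned 4.202 to 12.8 CPM, which includes this value. Without this library the log2 difference of Etv5KO from control lung was -0.15, against 0.02 with it.

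Atp2a3, the SERCA pump, had a genotype difference in AT2 cells that exceeded that in lung by 0.65 on the log2 scale (SE 0.11, adjusted p = 0.00214 by edgeR over all genes tested). It had 446 CPM in Etv5KO and 292 CPM in control AT2 cells, and 454 CPM in Etv5KO and 468 CPM in control lung. The 5 Etv5KO AT2 libraries lay above all 4 control AT2 libraries, whereas the lung ranges overlapped.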

How the results depend on the processing

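Over the 4 alternative settings and the libraries left out in turn, no genotype difference of a member moved by more than the spread between replicates. For the libraries left out this could hardly fail, since dropping 1 library usually moves a group mean by less than that spread. The differences between AT2 cells and lung kept their signs for all 7 genes, and the 4 tested genes kept their calls, but scaling by library size alone lowered them, for Atp2b1 to -0.77 from -0.37 in control mice and to -0.72 from -0.36 in Etv5KO mice. Leaving out 1 library at a time, Trpv6 ran from -2.94 to -2.71 in AT2 cells and -2.27 to -2.004 in lung, Cacna1h from 4.16 to 4.72 in AT2 cells and 0.49 to 0.66 in lung, and Atp2b2 from 2.27 to 2.68 in AT2 cells, all as log2 differences. Those of Trpv4 and S100g in AT2 cells and of Atp2b2 in lung, and the AT2 minus lung genotype differences of Trpv4 and Atp2b1, changed sign near 0. The genes called between lung genotypes numbered 71, against 197 by DESeq2 (123 higher, 74 lower), 122 in 1 fit of all groups (70 higher, 52 lower) and 44 to 80 without 1 library. The 44 came without control replicate 4, and 47 without control replicate 3. The cause was not tested. The difference between tissues in the genotype effect was called for 282 genes, against 450 by DESeq2 (233 higher, 217 lower) and 198 to 319 without 1 library. In AT2 cells the genotype call ran from 1062 to 1587 without 1 library, against 1474, of which 751 were higher and 723 lower (894 and 482 with scaling by library size alone). Between tissues 12038 to 12985 genes were called in control and 12841 to 13356 in Etv5KO mice without 1 library. Scaling by library size alone turned 6092 higher and 6662 lower into 3320 and 9479 in control mice, and 6417 and 6646 into 3583 and 9332 in Etv5KO mice, with the median of all genes at -0.42 and -0.36. No paired analysis was possible because the labels carry no replicate numbers and do not tie AT2 and lung libraries to mice. Values of Trpv4, Cacna1h, Atp2b2 and Atp2b4 in AT2 cells rest on few reads, which limits their precision.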
